A study of Mus musculus with 2 samples.

Results

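Among the genes annotated as long noncoding RNA (lncRNA) in the F123 mouse embryonic stem cell (mESC) line, 943 lay over a protein-coding gene, were expressed at a TPM (transcript level scaled for length and depth) of at least 1, and had no coding transcription start site (TSS) on the opposite strand within 2 kb of their own TSS. They were taken from 9207 lncRNA gene records, of which 2309 reached this TPM and 46 were set aside by name as well-known lncRNAs or host genes, and from 37178 gene records in all. The coding gene lay on the opposite strand only for 736 of them, on the same strand only for 182, and on both strands for 25. An overlap of the annotated spans sufficed, introns included. They lay on all 19 autosomes, from 23 on chromosome 18 to 76 on chromosome 7. Together they overlapped 951 coding genes, 875 of them had a single coding partner, and 24 overlapped another gene of the set. These genes were selected on their TPM and their annotated positions, so their levels are given as a description. The 3 lncRNA genes just above the TPM limit were 5830444B04Rik at 1.003, Gm37622 at 1.004 and Gm48265 at 1.005, and the 3 just below it were Gm43330 at 0.995, Gm49512 at 0.987 and Gm28370 at 0.986. The genes nearest to the distance limit had their TSS 2011 bases (Gm15642, inside) and 1975 bases (1810012K08Rik, outside) from an opposite coding TSS.

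Antisense lncRNAs run against the direction of the gene they overlap, and some of them act on that gene in cis, for example by transcribing across its promoter. Airn, an antisense RNA that starts inside the imprinted Igf2r gene, is the textbook case in the mouse. Sense-overlapping and intronic lncRNAs lie in the direction of the coding gene, where an RNA of their own and a piece of the unspliced coding transcript share the same bases. Total RNA holds unspliced transcripts, so both kinds of overlap bear on what a read inside such a gene stands for.

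F123 is a male hybrid line from 1 cross of a CAST father and an S129/Jae mother, so a base that differs between the strains assigns a read to the paternal or the maternal chromosome. Strain and parent of origin cannot be told apart in 1 line from 1 cross. The cells had been moved off feeder fibroblasts for at least 2 passages, with the LIF dose doubled. Their RNA was taken at a density of 70 to 80%, some 48 h into the culture. Total RNA of 2 replicates was made into stranded libraries, and the deposited table gives both replicates as 1 pooled sample, so no spread between replicates could be computed.

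The table held allelic reads for 18632 records, with a CAST share of 50.4% over all reads. The 8 stem cell markers ranged from a TPM of 14.4 for Esrrb to 483 for Utf1, whereas the 7 fibroblast markers ranged from 0.036 for Dcn to 3.06 for Thy1. Col1a2 stood at 1.01 among the latter, and the part of remaining feeder cells in any value was not tested. Intervals and standard errors (SE) below cover counting error only. Reads without molecular identifiers are not independent molecules, and 1 read that spans more than 1 variant may enter the counts repeatedly.

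RefSeq gave a start-site window, from 250 bases before to 50 bases after the TSS, for 210 of the 943 genes by symbol, and for 114 of them the RefSeq start lay within 50 bases of the deposited one. Windows of 5 genes that the results below turn on are shown (GRCm38.p6, 5′ to 3′ on the strand of the lncRNA), with each CpG dinucleotide in capitals. Galnt6os and Kank4os are antisense genes with unequal alleles, Ppifos is the antisense gene with the highest TPM among those named after their partner, Airn is the imprinted antisense RNA, and Sox1ot lies around a neural regulator on its own strand. Kank4os lies at chr4:98793518-98793817 on the plus strand, Galnt6os at chr15:100695482-100695781 (plus), Ppifos at chr14:25701233-25701532 (minus), Airn at chr17:12741061-12741360 (plus) and Sox1ot at chr8:12385521-12385820 (plus).
Kank4os: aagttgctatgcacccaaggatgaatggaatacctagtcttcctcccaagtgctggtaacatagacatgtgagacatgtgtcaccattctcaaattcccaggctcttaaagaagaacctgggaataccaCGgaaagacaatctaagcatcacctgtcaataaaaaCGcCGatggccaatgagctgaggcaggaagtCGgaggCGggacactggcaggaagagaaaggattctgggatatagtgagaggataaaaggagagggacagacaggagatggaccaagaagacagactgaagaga
Galnt6os: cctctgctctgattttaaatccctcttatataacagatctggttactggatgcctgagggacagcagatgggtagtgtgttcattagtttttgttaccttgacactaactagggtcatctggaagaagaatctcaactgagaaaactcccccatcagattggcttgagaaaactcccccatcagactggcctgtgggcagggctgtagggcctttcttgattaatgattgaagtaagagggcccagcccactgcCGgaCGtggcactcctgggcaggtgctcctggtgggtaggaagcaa
Ppifos: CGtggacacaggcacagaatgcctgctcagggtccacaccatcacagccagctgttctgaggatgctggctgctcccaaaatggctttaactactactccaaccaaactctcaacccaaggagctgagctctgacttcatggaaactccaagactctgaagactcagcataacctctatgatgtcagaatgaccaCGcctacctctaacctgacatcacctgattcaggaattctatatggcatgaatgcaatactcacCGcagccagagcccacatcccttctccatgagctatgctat
Airn: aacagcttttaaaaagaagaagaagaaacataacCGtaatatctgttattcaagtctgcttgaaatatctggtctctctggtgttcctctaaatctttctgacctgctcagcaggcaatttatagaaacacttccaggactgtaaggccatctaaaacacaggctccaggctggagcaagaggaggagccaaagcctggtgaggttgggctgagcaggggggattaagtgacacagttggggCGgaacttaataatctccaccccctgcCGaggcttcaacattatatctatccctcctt
Sox1ot: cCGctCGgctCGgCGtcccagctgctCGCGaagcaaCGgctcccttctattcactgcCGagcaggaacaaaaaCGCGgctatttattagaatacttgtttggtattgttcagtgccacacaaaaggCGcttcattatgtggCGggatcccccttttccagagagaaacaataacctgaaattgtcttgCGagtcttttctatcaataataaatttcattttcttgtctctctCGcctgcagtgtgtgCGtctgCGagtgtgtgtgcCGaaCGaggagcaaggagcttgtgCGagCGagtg

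These windows separated by their CpG content. Kank4os held 5 CpG dinucleotides, Galnt6os 2, Ppifos 3 and Airn 3, whereas Sox1ot held 20. The observed CpG number was 0.31, 0.11, 0.17 and 0.19 of the number that the base composition predicts in the first 4 windows, and 1.08 of it in Sox1ot. Over the 114 matched genes the median of this ratio was 0.26, against 0.38 over 32817 RefSeq windows, and 12.3% of the matched genes had a ratio of at least 0.6, against 35.8% of all windows. GC content was close, with a median of 51.0% against 52.7%. The deposited start of Galnt6os lay 48 bases and that of Airn 19 bases from the RefSeq start, and 108 of the 114 matched genes were antisense only.

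The level of these lncRNA genes followed that of the coding gene around them. The median TPM of the 943 genes was 3.64, with 261 genes under 2, 218 at 10 or more and 16 at 100 or more, and 88.1% of them lay over a coding record that itself reached a TPM of 1. Because the rule asks for expression, the relation was also described over all lncRNA records that lie wholly inside a coding record on the opposite strand and away from its TSS, whatever their own TPM. Of 299 such records inside a coding record with a TPM under 0.1, none reached 1, and their median TPM was 0.026. Inside coding records with a TPM from 0.1 to 1, 66 of 419 lncRNA records (15.8%) reached 1. From 1 to 10 the share was 386 of 517 (74.7%), with a median of 2.27. From 10 upward it was 92 of 95 (96.8%), with a median of 17.8.

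The records on the same strand as their coding gene gave the same order, at lower levels. The share with a TPM of at least 1 was 0 of 52, 11 of 89 (12.4%), 101 of 169 (59.8%) and 37 of 38 (97.4%) over the same 4 ranges of the coding TPM, with median TPM values of 0, 0.144, 1.24 and 4.95. The Spearman correlation between both TPM values was 0.84 over 1330 opposite-strand records and 0.78 over 348 same-strand records. These points share 1 pooled library and, base for base, stretches of the same transcript unit. Within the selected genes that lie wholly inside an opposite-strand coding record, the correlation was 0.59 (n = 544). The median ratio of the lncRNA's TPM to that of the coding record was 1.34 for antisense genes and 0.75 for same-strand genes.

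**Figure D1:**
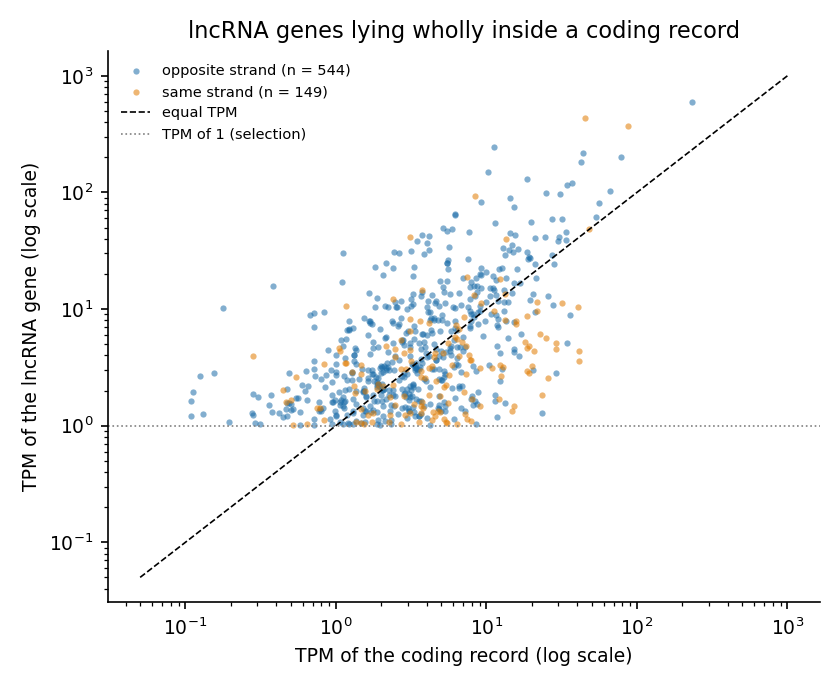
TPM of the coding record (x axis, log scale) against TPM of the lncRNA gene lying wholly inside it (y axis, log scale), with 1 point per gene, for 544 genes on the opposite strand and 149 on the same strand. The points rise together, and none lies under the dotted line at a TPM of 1, which is the selection itself.

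Some antisense genes had a higher TPM than the coding gene they overlap. Gm19553, on the minus strand of chromosome 17 (35509077 to 35510551), had the highest TPM of all 943 genes at 600, and lay over Pou5f1, the gene of the pluripotency factor OCT4, which stood at 232. Its allelic reads were nearly even, with 77 CAST and 71 S129 reads. Gm17122 had a TPM of 246 over the actin-binding coronin gene Coro1c at 11.3. Gm44170, over the ER translocon channel gene Sec61a1, stood at 217 against 44.1, and Gm17134, over the splicing regulator gene Ptbp1, at 219 against 142. These 4 genes lay on the opposite strand, and their own exons met exons of the coding gene. Gm17122, Gm44170 and Gm17134 are short, at 516, 673 and 498 bases, and coding exons covered 100% of each span. The coding TPM is taken over a whole gene with its introns, so these values cover unlike stretches.

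Among the same-strand genes, the highest levels were in part those of short records. Gm28967, of 281 bases, had a TPM of 433 inside Ncapd2, a condensin subunit gene at 45.5. Gm15344, of 977 bases, stood at 371 inside Hsp90b1, an ER chaperone gene at 87.3. Of the other 3 highest, Gm43695, of 277 bases, stood at 93.8 over the phosphatidylserine decarboxylase gene Pisd, Gm42743, of 9281 bases, at 62.3 over the histone gene Hist2h2bb, and Gm28037, of 14379 bases, at 61.1 over Rpl24 and Zbtb11. The genes with coding overlap on both strands reached lower maxima, led by Gm28306 at 56.1, over the small nucleolar RNP gene Imp4 at 45.6, and by Gm17108 at 41.8 over the RNA methyltransferase gene Nsun2 at 41.0. The setting by which the deposited counts treated strand is not given in the sources used here, and RNA of a gene and of its overlapping partner cannot be told apart in these values.

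How the exons of both genes meet split the levels further. Of the 943 genes, 937 were found in the GENCODE vM21 annotation. In 549 (58.2%) the lncRNA's own exons met exons of the coding gene, in 116 (12.3%) coding exons lay only in introns of the lncRNA, and in 272 (28.8%) the lncRNA's span held no exon of the coding gene. The deposited table gives a TPM over the whole transcript span, introns included, and one over exons. Where exons met exons, the median TPM was 5.52 over the span and 2.81 over exons. Where no coding exon lay in the span, it was 2.21 and 1.79.

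The 116 genes with coding exons in their introns stood apart. Their median TPM was 3.33 over the span but 0.171 over their exons, and 103 of them had an exon TPM under 1. An exon TPM under 10% of the span TPM was found in 81 of these 116 genes (69.8%), in 162 of all 943 (17.2%), and in 37 of 513 intergenic lncRNA genes (7.21%), which lie outside coding genes and had medians of 2.92 over the span and 1.89 over exons. The antisense gene 1600010M07Rik, which spans 3 coding genes with the nuclear import factor gene Ipo7 among them, had a span TPM of 12.8 and an exon TPM of 0.003. 1700095A21Rik, over the zinc finger gene Zfp981, had 26.8 and 0.269. Thus 332 of the 943 genes (35.2%) passed the selection on a span level although their exons stood under a TPM of 1.

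**Figure D2:**
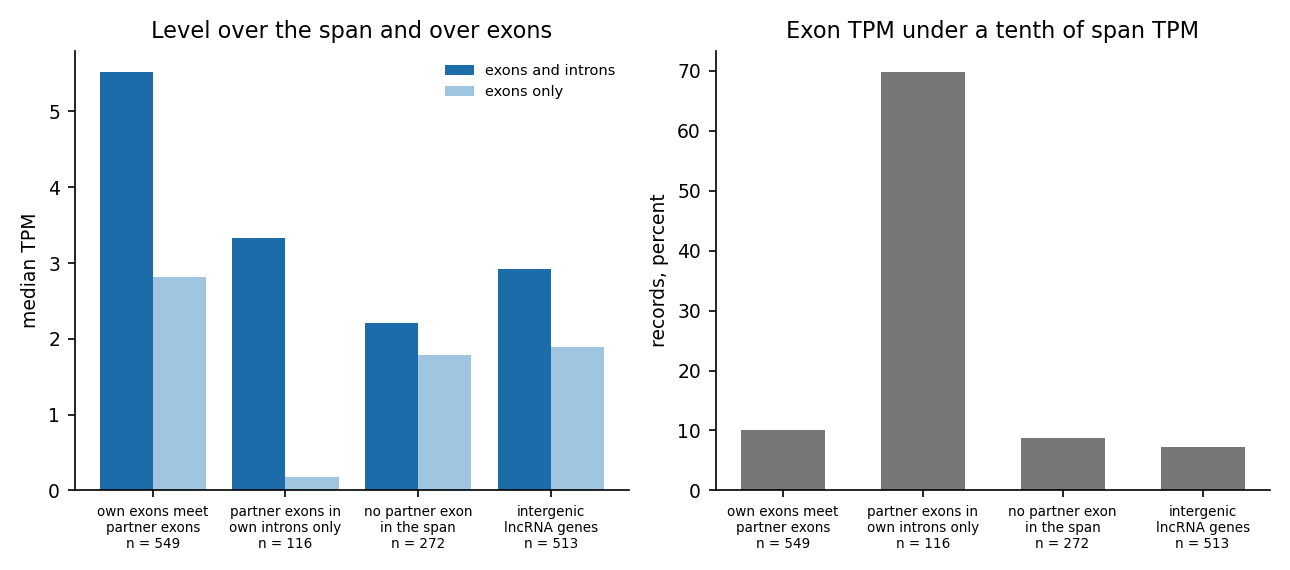
Left, median TPM over exons and introns (dark bars) and over exons only (light bars) for genes whose own exons meet coding exons, genes with coding exons in their introns only, genes with no coding exon in the span, and intergenic lncRNA genes. Right, percent of genes in each class with an exon TPM under 10% of the span TPM, which is 69.8% for the second class and at most about 10.0% in the others.

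Antisense and same-strand genes differed in build and in the position of their start. Of 736 antisense genes, 483 met coding exons with their own exons, and only 38 had a single exon. Of 182 same-strand genes, 126 held no coding exon, with a median span of 1581 bases, and 66 of those 126 had a single exon. In all, 693 of the 943 genes lay wholly inside 1 coding record and 250 overlapped it in part. For 544 genes wholly enclosed by an opposite-strand coding record, those with overlap on both strands included, the start lay at a median of 70.3% of the way along the coding gene from its TSS, and when the coding span was cut into 3 equal pieces the starts numbered 89, 156 and 299 from the TSS end to the far end. For 149 genes enclosed by a same-strand record the median was 40.7%, with 56, 54 and 39. The rule itself removes antisense genes with a start close to the coding TSS. An enclosed antisense gene also starts at the end of its span farther from the coding TSS, and a same-strand gene at the nearer end. Part of the difference between these positions follows from this alone, and where the spans themselves lie was not tested.

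Allelic reads were present for 691 of the 943 genes, with a median of 112 reads over 5 variants, and for 252 genes no variant was counted. The authors kept only variants in well-mappable regions that reached a minimum coverage, so such a gene may still differ between the strains. CAST and S129 reads of every record were compared by a two-sided exact binomial test with Benjamini-Hochberg adjustment over all 18632 records, and allele-specific expression (ASE) was called where the alleles differed at least 2-fold, the adjusted p did not exceed 0.05 and the TPM reached 1. ASE was found in 115 of the 691 genes (16.6%), against 14.1% of all 15935 records tested at this TPM. Toward CAST there were 57 genes (8.33% of all records were called in this direction) and toward S129 there were 58 (5.78% of all records). CAST thus made up 49.6% of the ASE genes, against 59.0% over all ASE records. The ASE share was 91 of 555 (16.4%) for antisense, 21 of 114 (18.4%) for same-strand genes, and 3 of 22 for genes with overlap on both strands. These shares lay near that of all records, whereas it was 122 of 552 (22.1%) among lncRNA genes with a divergent coding promoter and 121 of 365 (33.2%) among intergenic lncRNA genes.

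The share of calls differed with depth in every class. Overlapping genes with 20 to 99 reads were called in 22.1% of 213 cases and those with at least 500 reads in 12.2% of 148, as were 7.83% of 115 with fewer than 20 reads, while all records went from 24.3% to 8.83% from 20 to 99 up to at least 500 reads and intergenic lncRNA genes from 38.2% to 22.9%. The ratio between the alleles was modest in most ASE genes, with 84 under 4-fold and 31 at 4-fold or more when an allele without reads is set to 3 reads. The median ASE gene had 100 reads. Of the 115, 26 rested on 1 or 2 variants and 56 had at least 100 reads over at least 3 variants.

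**Figure D3:**
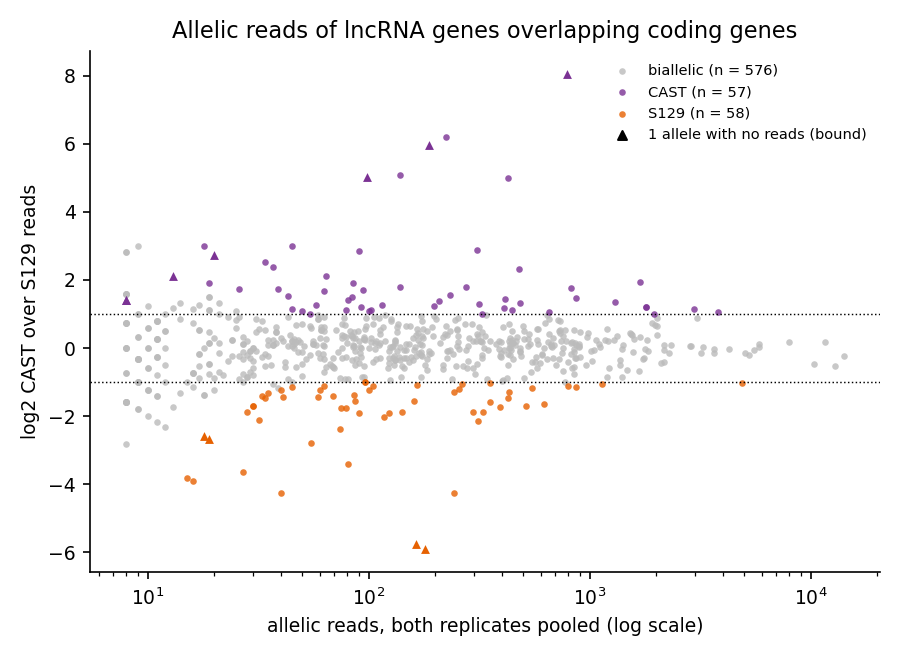
Allelic reads of each of 691 lncRNA genes, both replicates pooled (x axis, log scale), against the log2 ratio of CAST over S129 reads (y axis), with 57 CAST genes, 58 S129 genes and 576 biallelic genes. Triangles are genes with no read from 1 allele, drawn at the bound computed with 3 reads, and dotted lines mark 2-fold.

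Toward CAST, the ratios that were largest among genes with reads from both alleles came from antisense and same-strand genes alike. 1700111E14Rik, over the diacylglycerol kinase gene Dgki on chromosome 6 (36937048 to 36985784), had 221 CAST and 3 S129 reads (98.7% CAST, interval 96.1 to 99.7%, log2 fold change 6.20, SE 0.84). Its exon TPM was 0 and the Dgki record, at a TPM of 0.281, had 226 and 9 reads. 4921514A10Rik lies against Szrd1 on chromosome 4 (141115660 to 141118087) and had 416 and 13 reads (97.0% CAST, interval 94.9 to 98.4%), and its TPM was 44.8 over the span and 54.5 over exons. Galnt6os, whose start window is shown above, runs against Galnt6, an enzyme that begins mucin-type O-glycans. It had 398 and 80 reads (83.3% CAST, interval 79.6 to 86.5%), an adjusted p of 2.72e-50 in the exact binomial test, and a TPM of 11.5. Galnt6 itself was also CAST, with 2007 and 442 reads in a record that holds those of Galnt6os.

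In 3 further CAST genes both alleles were read but S129 was low. Gm4316 had 273 and 37 reads, Gm28610 had 79 and 11, and 4930517L18Rik, on chromosome 18, had 135 and 4. Genes with no S129 read were Gm42743, with 789 CAST reads at a single variant, Gm27151, with 187 at a single variant, and Plet1os, with 98 at 2 variants. A count of 0 allows an S129 share of up to 0.380% for Gm42743, 1.60% for Gm27151 and 3.06% for Plet1os, and the ratios were at least 263-fold, at least 62.3-fold and at least 32.7-fold higher from CAST. Gm27151, inside the cation channel gene Trpm3, had an exon TPM of 0. Gm42743 had the same allelic counts as the H2B histone gene Hist2h2bb, and Plet1os the same as Plet1, so neither lncRNA has an allelic value apart from its partner.

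Toward S129, Nphs1os had the most reads among genes with none from CAST. It runs against Nphs1, the gene of the kidney slit protein nephrin, on chromosome 7 (30462164 to 30465591) and had 0 CAST and 179 S129 reads at 13 variants. The exact interval of its CAST share reached 2.04%, and its ratio was 59.7-fold with the CAST count set to 3 reads. Its TPM was 5.98 over the span and 5.93 over exons, and the exact binomial test gave an adjusted p of 8.30e-53. Nphs1 was S129 as well, at 23 and 590 reads. Gm43803 inside Lhfp had 0 and 164 reads, beside 8 and 867 in the whole Lhfp record. Gm10532, inside Ctif at 69 and 120 reads, had 0 and 19, where the exact interval of the CAST share reached 17.6%.

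Among S129 genes read from both alleles, 5830444B04Rik, over the cilia gene Cfap74, had 12 and 232 reads, the same counts as Cfap74. 4930566F21Rik had 7 and 74 reads, beside 10 and 89 in 4930548H24Rik, whose exons cover 100% of its span. Gm14199, over the tubulin ligase family gene Ttll9 at 14 and 74 reads, had 7 and 48. Adap2os, over Adap2 at 35 and 96, had 12 and 62. Gm20412 lay against the transglutaminase gene Tgm2 on chromosome 2 (158117154 to 158117905), with 58 and 254 reads (18.6% CAST, interval 14.4 to 23.4%). Its TPM of 22.7 exceeded the 2.39 of Tgm2. Gm44200, inside the WAVE complex gene Brk1 on the same strand, had 23 and 94 reads while its exon TPM was 0.617.

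Among the biallelic genes with the most reads were long antisense genes. 1700095A21Rik had 6511 CAST and 7627 S129 reads over 235 variants (46.1% CAST, interval 45.2 to 46.9%), Gm17494 against Dnttip2 had 5267 and 7628, and 1600010M07Rik had 6180 and 5451 over 243 variants. Gm45894, with coding overlap on both strands, had 4211 and 3753 reads. In these 4 genes the adjusted p of the exact binomial test lay at most at 1.46e-06, but the ratios stayed under 2-fold. Scpep1os, against the carboxypeptidase gene Scpep1, had 2967 and 2889 reads (50.7% CAST, interval 49.4 to 52.0%) and an adjusted p of 0.442 in the same exact test. Dnttip2, which lies wholly inside Gm17494, had 5227 and 7506 reads, and Ipo7, wholly inside 1600010M07Rik, 4801 and 3978. Zfp981 had 6574 and 7850. The exon TPM of Gm17494 was 0.160 beside 23.3 over its span. What part of these reads comes from antisense RNA was not tested.

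The coding partner of an ASE lncRNA gene was never called toward the other allele. Its record holds the reads of an enclosed lncRNA gene, so the calls of a pair are not independent. Of the 57 CAST genes, 18 had a CAST partner, 32 a biallelic one and 7 a partner with a TPM under 1. Of the 58 S129 genes, 16 had an S129 partner, 30 a biallelic one, 11 a partner under that TPM and 1 a partner without allelic reads. The partner taken was the coding record with the longest overlap. Reads were shared in these pairs, and in 10 of the 115 (6 CAST and 4 S129) the lncRNA and its partner had identical allelic counts. In the whole table, 716 pairs of a lncRNA record lying wholly inside a coding record had allelic reads in both, and in none of them did the coding record have fewer reads than the lncRNA for either allele. The counts of an enclosed lncRNA gene thus never exceeded those of its coding gene, on either strand, and allelic reads from both strands cannot be told apart in them.

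Taking the lncRNA's reads as part of those of the coding record, the reads inside the lncRNA were set against the remainder, by a two-sided exact Fisher test per pair. A difference was called at an adjusted p of at most 0.05 and at least 2-fold between the ratios, with at least 20 reads on each side. Among 402 pairs of 352 lncRNA genes with 329 coding genes, 64 were called (15.9%), against 16.5% of all 498 pairs tested. Those 498 hold the 402 pairs themselves and pairs of lncRNA records outside the selection, so the shares are not independent. The called pairs belonged to 55 lncRNA genes, and comprised 40 of 329 opposite-strand and 24 of 73 same-strand pairs. Pairs of 1 lncRNA with several records of a gene share their reads. The inside held a median of 12.2% of the coding record's reads.

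The allelic ratio changed along the coding gene in both directions. Inside the lncRNA it was moved toward CAST in 33 called pairs and toward S129 in 31, and in 37 of the 64 the inside and the outside lay on opposite sides of equal shares. In 30 called pairs the lncRNA gene was ASE while the coding record was biallelic, in 5 both were ASE, in 4 the coding record had a TPM under 1, and in 25 the lncRNA gene was not ASE. Over all 402 pairs the median absolute difference between the log2 ratios was 0.45. The Spearman correlation of the inside and the outside ratio was 0.40 across these pairs, which come from 1 pooled sample and share coding genes.

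**Figure D4:**
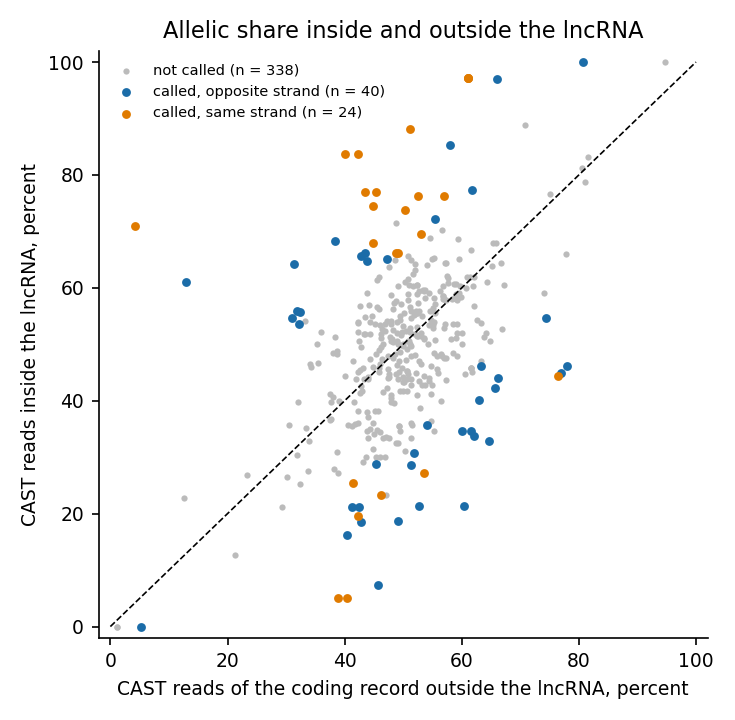
CAST share of the reads of the coding record outside the lncRNA (x axis, percent) against the CAST share inside it (y axis, percent) for 402 pairs, with 40 called opposite-strand pairs, 24 called same-strand pairs and 338 pairs not called. Called pairs lie on both sides of the dashed line of equal shares.

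The difference was greatest, among called pairs, for 1300002E11Rik within Map3k13, a kinase gene of the MAP kinase cascade on the same strand. It had 225 CAST and 92 S129 reads inside (71.0%, interval 65.6 to 75.9%), whereas the rest of Map3k13 had 4 and 91 (4.21%, interval 1.16 to 10.4%). The log2 ratios differed by 5.80 (SE 0.76, adjusted p = 1.05e-31 in the exact Fisher test), and the whole Map3k13 record, at 229 and 183 reads, was near even. That record had a TPM of 0.545, and 15 of its 17 variants and 76.9% of its reads lay inside the lncRNA. Its remainder thus rests on very few variants. 4930517L18Rik, at 135 and 4 reads, lay inside 3 overlapping coding records that had 6837 and 4351 elsewhere, the same reads for each, a difference of 4.42 (SE 0.73). It made up only 0.097 to 0.100% of these long annotated spans, whose exon TPM was 0.016 to 0.064. The reads elsewhere are those of the whole region. 4921514A10Rik differed from the rest of Szrd1, at 216 and 111 reads, by 4.04 (SE 0.44). Outside Gm27151, Trpm3 had 323 and 77 reads (80.8% CAST, interval 76.5 to 84.5%), so both were on the CAST side and the single variant of Gm27151 carried the difference.

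Other pairs are named after their values were seen. Gm48512, against the kinesin gene Kif3c, had 136 and 87 reads while Kif3c had 39 and 263 elsewhere (61.0% against 12.9% CAST, difference 3.40, SE 0.32). Gm16048, against the natriuretic peptide receptor gene Npr1, had 81 and 45 reads against 112 and 245. In 5830418P13Rik, against the lens filament gene Bfsp2, the counts were 305 and 142 inside and 41 and 66 outside. These 3 antisense genes were on the CAST side within coding genes that were on the S129 side elsewhere. They covered 89.1% of the Kif3c span, 36.1% of Npr1 and 60.9% of Bfsp2. For Kif3c and Bfsp2 the reads elsewhere thus come from the smaller part of the span.

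The reverse was seen for other antisense genes. Gm16536, against Bace1, the gene of beta-secretase, had 30 CAST and 111 S129 reads inside and 373 and 244 outside (21.3% against 60.5% CAST, interval of the former 14.8 to 29.0%, difference −2.50, SE 0.32). Kank4os, which lies between exons of Kank4 on chromosome 4 (98793768 to 98798900) with its own TPM of 6.17 over the span and 6.15 over exons, had 136 and 267 reads over 15 variants. The rest of Kank4, a cytoskeletal adaptor gene, had 1061 and 649. That is 33.7% CAST (interval 29.1 to 38.6%) inside and 62.0% (59.7 to 64.4%) outside, a difference of −1.68 (SE 0.17, adjusted p = 8.21e-23 in the exact Fisher test). Kank4os itself missed the 2-fold limit of ASE, with a log2 fold change of −0.97 (SE 0.15), and Kank4 was biallelic. Gm20412 had 58 and 254 reads against 125 and 167 in the rest of Tgm2, and Nphs1os 0 and 179 against 23 and 411 in the rest of Nphs1.

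**Figure D5:**
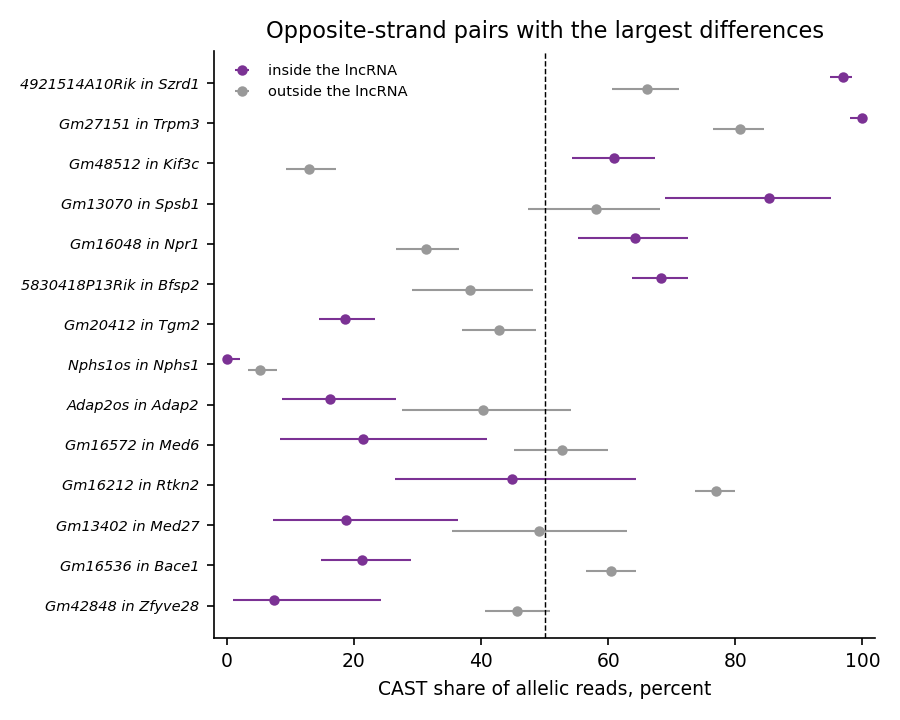
CAST share of allelic reads (x axis, percent) inside the lncRNA (purple) and in the rest of the coding gene (grey) for the 14 opposite-strand pairs with the largest called differences, with exact 95% intervals as lines and equal shares dashed. The intervals inside and outside do not overlap for Gm48512 in Kif3c (61.0% and 12.9%) or Gm16536 in Bace1 (21.3% and 60.5%).

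Of the 943 genes, 49 carry the name of their coding partner with the suffix os, for opposite strand. Their median TPM was 3.21, with a range from 1.07 for Dtnbos to 50.3 for Ppifos, against 3.64 for all 943. Ppifos runs against Ppif, the gene of mitochondrial cyclophilin D at a TPM of 37.9, and its exon TPM was 8.73. Ptprtos stood at 10.1 inside the receptor phosphatase gene Ptprt, which had a TPM of 0.178. Of 33 with allelic reads, 4 were CAST (Galnt6os, Plet1os, Anxa11os, Arhgap27os2), 2 were S129 (Nphs1os, Adap2os) and 27 biallelic, which is 6 of 33 beside the 14.1% of all records.

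These 6 rested on unequal depth. Anxa11os had 150 and 58 reads (72.1% CAST, interval 65.5 to 78.1%), above the 420 and 337 in the rest of the annexin gene Anxa11 (difference 1.05, SE 0.25). Arhgap27os2 had 8 and 0 reads at 1 variant, the same counts as Arhgap27. Among the biallelic ones, Ppifos had 775 and 973 reads and Ptprtos 236 and 223. Recql5os1 had 78 and 40 reads inside the helicase gene Recql5 and 422 and 549 outside, a called difference of 1.34 (SE 0.30).

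Regulators on a chosen list of pluripotency, chromatin, signaling and development genes were partners of 15 of the 943 genes. Of these, 9 had allelic reads and none were called ASE, beside 14.1% of all records. The list is not complete, and Map3k13, which holds the CAST gene 1300002E11Rik, is not on it. With 9 genes, this count cannot be told apart from that share. Adjusted p-values of the exact binomial test were under 0.05 for Airn and Sox1ot, both with ratios under 2-fold. Apart from Gm19553 over Pou5f1, levels were low to moderate, from 1.07 for Sox1ot to 22.3 for Gm15718, which lies over Zranb1 and the long annotated span of the receptor gene Fgfr2. Kdm6bos, against the H3K27 demethylase gene Kdm6b, had a TPM of 8.55 and no counted variant. A630014C17Rik, against the Wnt pathway factor gene Tcf7, had 88 and 100 reads, Gm17231 against Arid3b had 275 and 229, and Gm16159 against Fgfr1 had 35 and 38. Gm15222, inside Bmp4, a growth factor gene that was CAST at 363 and 134 reads, had 3 and 6 reads (adjusted p = 0.639 in the exact binomial test).

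Airn, on chromosome 17 (12741330 to 12830250), is known as the paternally expressed RNA of the Igf2r locus in differentiated tissues. Here it had 708 CAST and 485 S129 reads over 84 variants (59.3% CAST, interval 56.5 to 62.1%, log2 fold change 0.55, SE 0.09), and was biallelic by the 2-fold limit. Its TPM was 3.17 over the span and 0.023 over exons, and its introns held Igf2r exons. The Igf2r record, which covers 31.9% of the Airn span, had 1193 and 1220 reads at a TPM of 12.1. In that stretch reads of Airn and of Igf2r cannot be told apart in these counts. The allelic share of Airn RNA alone was not tested. Sox1ot, whose start window was rich in CpG, had 102 and 146 reads, the same as Sox1, a factor of neural progenitors, and an exon TPM of 0.038 beside a span TPM of 1.07.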

How the data were processed

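The authors aligned stranded total RNA-seq reads of 2 replicates to mm10 with STAR (version 2.7.2c). The deposited counts are CAST and S129 reads that the authors summed per gene, across its variants and across replicates. The deposited TPM was scaled by the authors from HTSeq counts, once over exons and introns and once over exons. The authors' p-values, log2 fold changes, allelic ratios and gene classes in the same table were not used. How HTSeq treated strand is not given in the sources used here.

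Coding partners were gene records with overlapping spans. Exons came from GENCODE vM21, start-site sequences from RefSeq (GRCm38.p6). A two-sided exact binomial test per record and a two-sided exact Fisher test per nested pair, each with Benjamini-Hochberg adjustment over the table, were tested on simulated data. Intervals are exact (Clopper-Pearson, 95%), SEs follow from counts, and an allele without reads was set to 3 reads for bounds. Named genes were the 5 highest by TPM per strand class, the 6 largest ratios per allele with at least 50 reads, 3 monoallelic genes per allele, the 6 biallelic genes with the most reads, the 6 largest pair differences, genes named for their partner, genes over listed regulators, and Airn, and 1 gene that this rule names is not reported here. The genes and lists were chosen with earlier results of these data known. Alternatives changed the read, TPM, fold and variant minima, the assumed spread, the null share, and the overlap and distance limits. Tests ran in scipy 1.17.1 under Python 3.11.15, with pandas 2.3.3 and numpy 2.4.6, and plots in matplotlib 3.10.9.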

Additional observations from a re-analysis of the deposited data

How the results depend on the processing

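The number of ASE genes was 115 in all, 91 antisense and 21 on the same strand. With at least 100 allelic reads it was 59 (16.3% of 363 tested), 48 and 9, and with a TPM of at least 5 it was 42 (12.8% of 327), 35 and 7. With at least 4-fold, where genes without reads from 1 allele passed any fold limit, it was 33, 27 and 6. That is 4.78% of the genes beside 5.16% of all records. A beta-binomial test with a within-gene correlation of 0.05 gave 18, 14 and 4, or 2.60% of the genes beside 3.06% of all records. At a correlation of 0.01 it gave 89, or 12.9% beside 12.1% of all records, and 20 of 21 named ASE calls were kept, Arhgap27os2 being the exception. At 0.05, 14 of 21 were kept, and Gm14199, Adap2os, Gm20412, Gm44200, 1300002E11Rik and Anxa11os were also lost. The other alternatives gave from 84 to 117 genes in all. The lowest of these left out genes with any variant whose non-reference base is on S129, an alternative chosen after seeing the data. Of the tested pairs, 15.9% were called, and this became 30.6% without a 2-fold minimum, 10.3% (22 pairs) with a TPM of at least 5 and 4.98% (20 pairs) with the beta-binomial test at 0.01. Those 20 included 1300002E11Rik, 4921514A10Rik, Gm48512, Gm16536 and Kank4os, whereas Nphs1os, Adap2os, Recql5os1 and Anxa11os were lost. For the read, TPM and fold minima the fall follows from fewer genes tested or a higher limit. No paired analysis was possible because the deposited table pools both replicates, and no replicate could be left out. Overlapping spans, unequal depth and 252 genes without counted variants limit these calls.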
